A study of Mus musculus with 6 samples.

Results

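The DNA replication genes examined here were 45 genes: a list of replication origin, helicase, polymerase, clamp, ligase and nucleotide supply genes, found by symbol among the 53465 genes of a table of raw read counts. The rule uses symbols and functions and no measured value, but the list was chosen with earlier results of these data known. Each of the 45 symbols matched 1 gene. RNA was sequenced from 6 primary liver cancer cell lines of C57BL/6 mice. The lines came from tumours made by hydrodynamic tail vein injection, which delivers plasmids into hepatocytes, of a Sleeping Beauty transposon that carries c-myc together with a plasmid for Cas9 and a single guide RNA. The 3 lines Myc_Utx 2A, 2B and 2D came from tumours in which Kdm6a, also called Utx, was targeted. Kdm6a encodes a histone H3 lysine 27 demethylase of the MLL3/MLL4 COMPASS-like complex. The 3 control lines, Myc_p53 1, 2 and 3, came from tumours in which p53 was knocked out. Both groups therefore carry transposon c-myc, and each line of a group came from a different mouse. Tumours were dissociated and the cells were passaged on collagen to obtain cultures without visible cells of another kind. Because the control lines lack p53, an effect of Kdm6a targeting and an effect of p53 status cannot be told apart in this design.

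Before S phase, the origin recognition complex, Cdc6 and Cdt1 load the MCM helicase onto DNA, a step called licensing that geminin restrains. A kinase made of Cdc7 and Dbf4, together with Cdc45 and GINS, then turns MCM into the active helicase, after which primase, the replicative polymerases, the PCNA clamp, RPA and the enzymes that join Okazaki fragments copy the strands. Many of these genes are transcribed under control of E2F factors in late G1 and S phase, and in regenerating liver and liver cancer they are commonly used as signs of cell division. In bulk RNA, more cells in S phase and more transcript per cell cannot be told apart.

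The 6 lines held 4656103 to 6937497 counts over all genes, and 11510 genes passed the filter on low counts. Values below are CPM, read counts relative to library size after TMM scaling, unless another scale is named, and a gene was called when edgeR's quasi-likelihood test gave an adjusted p under 0.05. Across all genes tested, 805 were called higher in Myc_Utx (6.99%) and 885 lower (7.69%). With scaling to total counts the numbers were 601 and 1009, and with scaling to the sum of counts per exonic base they were 428 and 1508. The correlation of log2 CPM was 0.951 to 0.957 among Myc_Utx lines, 0.888 to 0.944 among Myc_p53 lines and 0.846 to 0.883 between the groups. Kdm6a was counted 199, 244 and 220 times in Myc_Utx 2A, 2B and 2D and 440, 348 and 298 times in Myc_p53 1, 2 and 3, with a log2 fold change of -0.39, SE 0.22, adjusted p = 0.243. These counts overlapped once scaled (42.5 CPM in Myc_p53 3 against 49.0 CPM in Myc_Utx 2D), and counts over a whole gene do not show small Cas9-made changes. The labels were therefore not checked by this gene.

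All 45 replication genes passed the filter, with 37 to 2287 counts in a line. Of these, 40 had a log2 fold change above 0, or 88.9% against 49.2% of all genes tested. Rrm2, Rrm1, Mcm5, Pold2, Lig1 and Mcm6 were called higher in Myc_Utx, which is 6 of 45 (13.3% against 6.99% of all genes), and Pole was the single gene called lower (2.22% against 7.69%). The values of the groups did not overlap, with all 3 Myc_Utx lines higher, for 18 genes (40.0% against 21.1%), and with all 3 lower for 1 gene (2.22% against 20.9%). An unadjusted p under 0.05 with a higher value was found for 16 genes (35.6% against 16.6%). The median log2 fold change of the 45 genes was 0.29, against -0.01 for all genes tested, and single genes ran from -0.42 for Pole to 1.19 for Rrm2. DESeq2 called 9 replication genes higher, adding Gmnn, Pcna and Tyms to the same 6 genes, against a background of 9.37%, and it called Pole lower against a background of 11.5%. When Myc_Utx 2A was left out, edgeR called 0 of the 45 genes (12 had an unadjusted p under 0.05 and a higher value), but also no more than 3 genes higher and 1 lower among all 12064 tested. When 2B or 2D was left out Rrm2 was the one replication gene called, among 43 genes called higher in all in either case. Leaving out Myc_p53 1 kept Rrm2, Rrm1 and Pold2, leaving out Myc_p53 3 kept Rrm2 and Rrm1, and leaving out Myc_p53 2 lost Lig1, added Tyms and kept the other 6 calls.

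The sign of the smaller differences depended on the scaling. Scaling to the sum of counts per exonic base, which is what TPM does, lowered the median of all genes to -0.20 and that of the 45 genes to 0.10, and 28 of the 45 genes then stayed above 0. The distance between both medians was 0.31 with TMM and 0.30 with this scaling, and 41 of 45 genes lay above the median of all genes in either case. Mcm6 (adjusted p = 0.108, edgeR), which also lay just past the threshold with total counts (0.0514) and with a minimum of 10 counts in every line (0.05001), and Lig1 (adjusted p = 0.0776, edgeR) were no longer called with it.

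**Figure D1:**
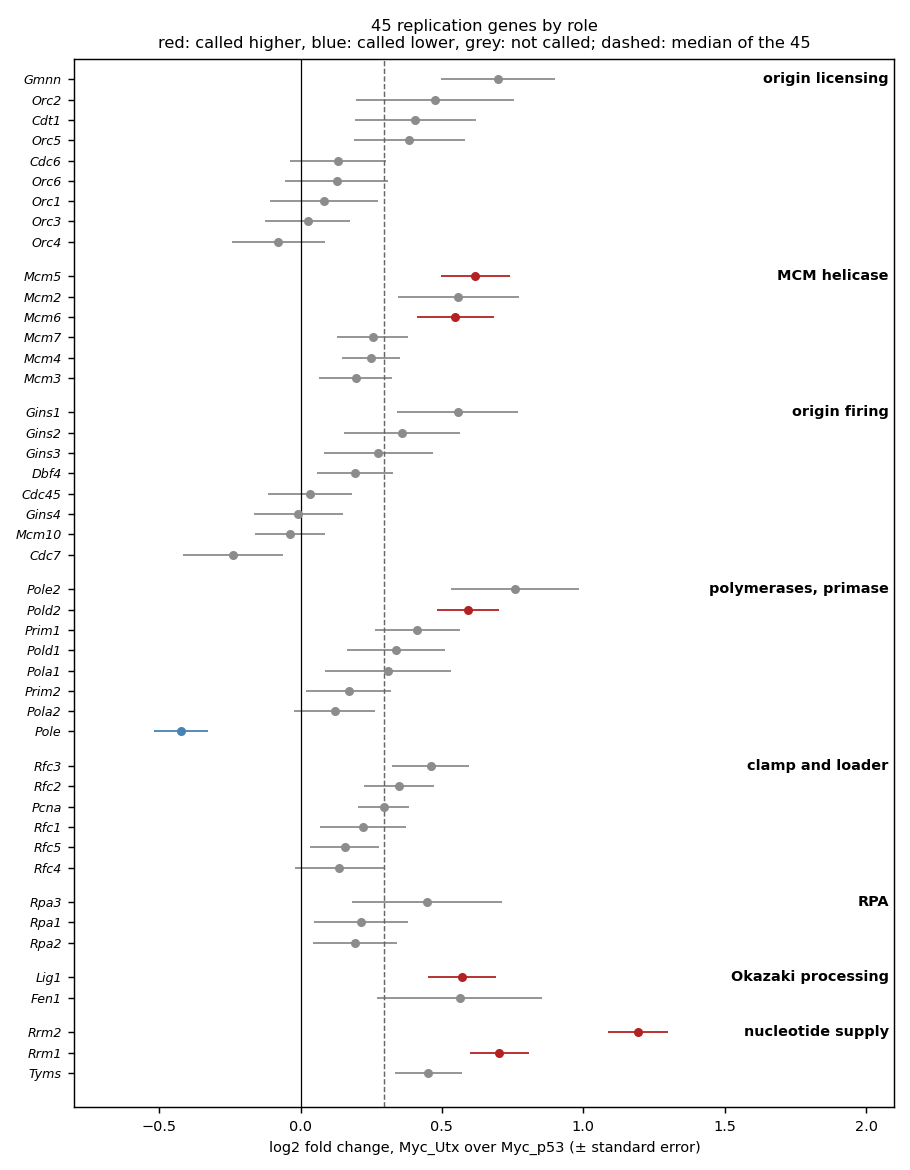
Log2 fold change of Myc_Utx over Myc_p53 for each of the 45 genes by role, with bars for the standard error from edgeR's fit over 3 and 3 lines. Red points are the 6 genes called higher, the blue point is Pole, called lower, grey points were not called, and the dashed line is the median of the 45 genes, 0.29.

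Nucleotide supply held the gene with the largest difference of the list, and all 3 of its genes were free of overlap. Ribonucleotide reductase makes deoxyribonucleotides from ribonucleotides, and Rrm2 encodes its small subunit, whose level is known to follow the cell cycle. Rrm2 (ENSMUSG00000020649, chr12:24708241-24714146, plus strand, GRCm38) was at 392, 390.0 and 426 CPM in Myc_Utx 2A, 2B and 2D and 179, 160.1 and 188 CPM in Myc_p53 1, 2 and 3. Every Myc_Utx line lay above every Myc_p53 line, and the levels of the groups were 2.29-fold apart (log2 fold change 1.19, SE 0.11, adjusted p = 0.0103). Rrm1 (ENSMUSG00000030978, chr7:102441695-102469771, plus strand) encodes the large subunit and was at 452, 428 and 452 CPM in Myc_Utx 2A, 2B and 2D and 256, 262 and 299.995 CPM in Myc_p53 1, 2 and 3. It was also higher in each Myc_Utx line, by 1.63-fold (log2 fold change 0.70, SE 0.10, adjusted p = 0.0171). Tyms, which makes thymidylate, was at 99.5, 94.9 and 107 CPM in Myc_Utx 2A, 2B and 2D and 67.3, 79.7 and 73.3 CPM in Myc_p53 1, 2 and 3 and likewise did not overlap between the groups. Its log2 fold change of 0.45, SE 0.12, adjusted p = 0.0515 lay just outside the threshold. Rrm2 and Rrm1 were the replication genes that stayed called most often when 1 line was left out: Rrm2 was lost only without Myc_Utx 2A, where its adjusted p was 0.0614, and Rrm1 was lost without Myc_Utx 2A, 2B or 2D (adjusted p = 0.0614 to 0.0712, edgeR).

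The MCM genes encode the 6 subunits of the helicase ring, and all 6 had a log2 fold change above 0. Mcm5 (ENSMUSG00000005410, chr8:75109569-75128439, plus strand) was at 271, 258 and 294 CPM in Myc_Utx 2A, 2B and 2D and 178, 199 and 159 CPM in Myc_p53 1, 2 and 3. Its lowest Myc_Utx value lay above its highest Myc_p53 value, and it was called higher with a log2 fold change of 0.62, SE 0.12, adjusted p = 0.0274. Mcm6 (ENSMUSG00000026355, chr1:128331590-128359664, minus strand) was at 406, 403 and 469 CPM in Myc_Utx 2A, 2B and 2D and 247, 318 and 309 CPM in Myc_p53 1, 2 and 3. Its groups did not overlap either, and its log2 fold change was 0.55, SE 0.14, adjusted p = 0.0452. Mcm2 was at 235, 232 and 279.7 CPM in Myc_Utx 2A, 2B and 2D and 183, 119 and 204 CPM in Myc_p53 1, 2 and 3. The spread among Myc_p53 lines was wide for this gene, with Myc_p53 2 far below the other two, and its log2 fold change of 0.56, SE 0.21, adjusted p = 0.121 did not pass the test. Mcm4 and Mcm7 also did not overlap between the groups, with log2 fold changes of 0.25 and 0.26 that did not pass the test. Mcm3 overlapped, since Myc_p53 3 reached 248 CPM against 231 CPM in Myc_Utx 2A, and its log2 fold change of 0.19 became -0.00 when libraries were scaled per exonic base. The median over the 6 genes was 0.40. Summed over the 6 genes, the level was 1757, 1713 and 1910 CPM in Myc_Utx 2A, 2B and 2D and 1319, 1316 and 1434 CPM in Myc_p53 1, 2 and 3, without overlap.

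**Figure D2:**
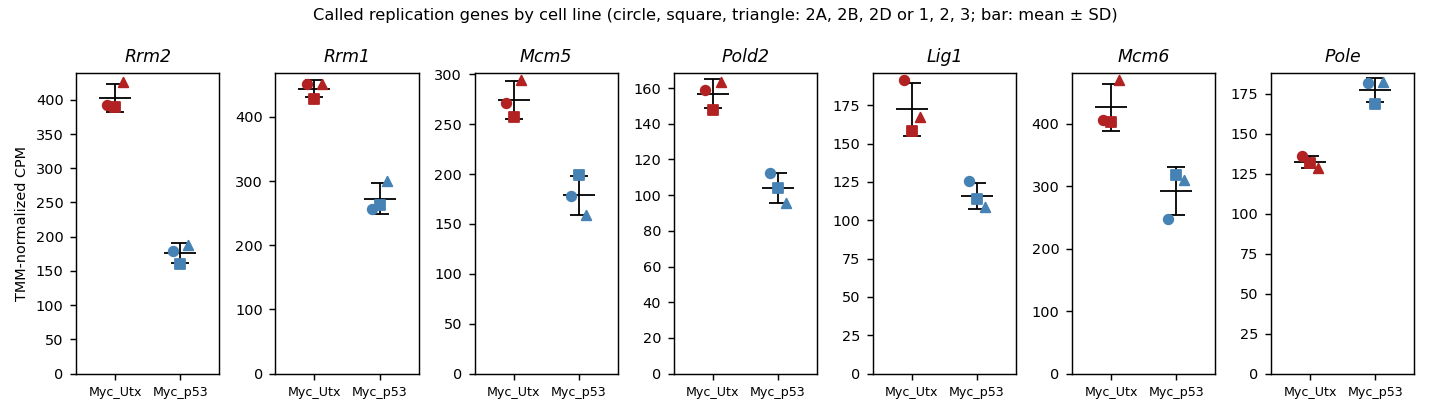
TMM-scaled CPM of the 7 called genes in each cell line, with each vertical axis starting at 0; points are lines (red Myc_Utx, blue Myc_p53) and bars are the mean and SD of 3 lines. The groups are apart for all 7 genes, with Myc_Utx above Myc_p53 for 6 genes and below it for Pole.

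Stretches upstream of the start are shown for 5 of the 6 genes called higher. Mcm5 and Mcm6 carry letters of an E2F site there, while the windows of Rrm2, Rrm1 and Pold2 hold no exact match to these letters. The windows of all 5 genes hold the CCAAT box, which the factor NF-Y binds. Stretches were taken only from genes with E2F or CCAAT letters upstream of a start. The stretches are taken from RefSeq windows on GRCm38.p6, from 250 bases before to 50 bases after a transcript start, and are written on the strand of the gene. Capitals mark the E2F letters (TTTCCCGC, TTTGGCGC, TTTCGCGC or TTTGCCGC on either strand) in the first pair and CCAAT on either strand in the others. In the first pair CCAAT is not marked. It lies outside the stretch of Mcm5 and in lower case in that of Mcm6. In Mcm5, and at the first place in Mcm6, E2F letters on both strands overlap and are written as 1 run.
Mcm5, chr8:75109326-75109397, plus strand: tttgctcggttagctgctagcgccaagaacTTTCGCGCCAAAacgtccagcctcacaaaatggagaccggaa
Mcm6, chr1:128359715-128359845, minus strand: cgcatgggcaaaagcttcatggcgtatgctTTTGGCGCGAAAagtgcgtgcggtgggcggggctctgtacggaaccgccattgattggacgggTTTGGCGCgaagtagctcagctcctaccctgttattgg
Rrm2, chr12:24708174-24708238, plus strand: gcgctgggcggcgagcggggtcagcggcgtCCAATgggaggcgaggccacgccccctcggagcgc
Rrm1, chr7:102441574-102441684, plus strand: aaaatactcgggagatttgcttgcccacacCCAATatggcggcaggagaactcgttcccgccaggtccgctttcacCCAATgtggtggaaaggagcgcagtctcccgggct
Pold2, chr11:5878269-5878333, minus strand: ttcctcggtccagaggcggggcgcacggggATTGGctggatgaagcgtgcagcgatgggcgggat
Lig1, the sixth gene, has E2F letters from position 27 after a start and no CCAAT in its windows.

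Windows were found by symbol for 37 of the 45 genes, and none was used here for Mcm4, Gmnn, Gins1, Gins2, Gins4, Pole, Rfc2 and Prim2. E2F letters stood in the windows of 14 of the 37 genes (37.8%), against 2.61% of all 27025 genes with a window and 4.97% of the tested genes among them. They were Cdc6, Cdt1, Gins3, Lig1, Mcm3, Mcm5, Mcm6, Mcm7, Orc1, Orc3, Pola1, Pold1, Pole2 and Rfc3. CCAAT on either strand stood in 23 of 37 (62.2% against 41.1% of all genes), the E-box CACGTG, a site of Myc and related factors, in 7 (18.9% against 8.09%), and the CHR letters TTTGAA or TTCGAA on either strand, known from genes repressed by the DREAM complex, in 9 (24.3% against 21.7%). A gene can have more than 1 window. A match describes the letters alone and does not show that a factor was bound in these cells.

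The polymerase and primase genes were the one role group with calls in both directions. Pold2 (ENSMUSG00000020471, chr11:5872180-5878292, minus strand), an accessory subunit of DNA polymerase delta, was at 159, 148 and 164 CPM in Myc_Utx 2A, 2B and 2D and 112, 104 and 95.5 CPM in Myc_p53 1, 2 and 3. All Myc_Utx lines were higher, with a log2 fold change of 0.59, SE 0.11, adjusted p = 0.0246. Pole (ENSMUSG00000007080, chr5:110286306-110337474, plus strand), the catalytic subunit of DNA polymerase epsilon, was at 136, 132 and 129 CPM in Myc_Utx 2A, 2B and 2D and 181, 169 and 182 CPM in Myc_p53 1, 2 and 3. Here all Myc_Utx lines were lower, and the log2 fold change was -0.42, SE 0.09, adjusted p = 0.0362. Pole2, the partner subunit of the same polymerase, was at 27.1, 19.1 and 24.9 CPM in Myc_Utx 2A, 2B and 2D and 16.6, 13.2 and 12.3 CPM in Myc_p53 1, 2 and 3. It lay the other way, without overlap, but its log2 fold change of 0.76, SE 0.23, adjusted p = 0.0673 did not pass the test. Of the other 5 genes, Prim1 (primase, log2 fold change 0.41) did not overlap between the groups, and Pold1, Pola1, Prim2 and Pola2 overlapped, at 0.12 to 0.34; none of the 5 was called.

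Log2 fold changes varied with exonic length, and the call of Pole depended on how length was handled. Across all genes tested, log2 fold change and exonic length had a Spearman correlation of -0.249, and over the 45 genes it was -0.181 (a description over genes, which share the same 6 libraries). Pole is long, with 11160 exonic bases, and with length offsets its log2 fold change was -0.16 (adjusted p = 0.284, edgeR). Without the filter on low counts its adjusted p was 0.108 (edgeR). Rrm1, with 11012 exonic bases, had a log2 fold change of 0.97 with length offsets against 0.70 without. The offsets depend on length and library alone, so both long genes were shifted upward alike. A part of length in the value of Pole was not tested. Pold2, with 1896 exonic bases, fell to 0.41 (adjusted p = 0.0525, edgeR), while Rrm2, Mcm5, Mcm6 and Lig1 stayed called and Tyms was added.

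Both genes that complete Okazaki fragments had higher means in Myc_Utx. Lig1 (ENSMUSG00000056394, chr7:13277283-13311433, plus strand), the ligase that seals the fragments, was at 192, 158 and 167 CPM in Myc_Utx 2A, 2B and 2D and 125, 114 and 109 CPM in Myc_p53 1, 2 and 3. The groups were apart, with a log2 fold change of 0.57, SE 0.12, adjusted p = 0.0319. Fen1, the flap nuclease, was at 9.17, 13.3 and 11.8 CPM in Myc_Utx 2A, 2B and 2D and 6.32, 6.86 and 9.98 CPM in Myc_p53 1, 2 and 3. Fen1 had the fewest counts of the list, Myc_p53 3 lay above Myc_Utx 2A, and the log2 fold change of 0.56, SE 0.29, adjusted p = 0.218 did not pass the test. Of the 2422 exonic bases of Fen1, 1909 are shared with Gm10143 on the other strand. The counting strand is not given in the sources used here, so reads of such overlapping genes cannot be told apart, and the same holds for Gins2 (2758 of 4097 bases shared with Gse1) and Orc2 (1150 of 3857 bases shared with Nif3l1). Rrm2, Rrm1, Mcm5, Mcm6 and Pold2 share no exonic base with another gene.

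The PCNA clamp and its loader, replication factor C, had log2 fold changes from 0.14 to 0.46, and none of the 6 genes was called by edgeR. Rfc3 was at 46.1, 41.8 and 47.4 CPM in Myc_Utx 2A, 2B and 2D and 30.8, 32.6 and 34.8 CPM in Myc_p53 1, 2 and 3. Pcna, the clamp itself and a standard S phase marker, was at 273, 282 and 294 CPM in Myc_Utx 2A, 2B and 2D and 233, 227 and 232 CPM in Myc_p53 1, 2 and 3. Rfc2 was at 86.8, 71.9 and 86.2 CPM in Myc_Utx 2A, 2B and 2D and 65.1, 64.3 and 63.0 CPM in Myc_p53 1, 2 and 3. For these 3 genes every Myc_Utx line was above every Myc_p53 line, with log2 fold changes of 0.46, SE 0.14, adjusted p = 0.0662 for Rfc3, 0.29, SE 0.09, adjusted p = 0.0712 for Pcna and 0.35, SE 0.12, adjusted p = 0.104 for Rfc2. For Pcna the lines of a group lay close together. Rfc1, Rfc5 and Rfc4 overlapped between the groups.

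RPA coats single-stranded DNA at the fork, and none of its 3 genes was called or was free of overlap. Rpa3 was at 39.9, 30.1 and 27.6 CPM in Myc_Utx 2A, 2B and 2D and 30.02, 16.9 and 24.7 CPM in Myc_p53 1, 2 and 3 (log2 fold change 0.45, SE 0.26, adjusted p = 0.272). Rpa2 was at 68.6, 65.0 and 80.2 CPM in Myc_Utx 2A, 2B and 2D and 70.2, 61.4 and 55.6 CPM in Myc_p53 1, 2 and 3 (log2 fold change 0.19, SE 0.15, adjusted p = 0.398). Rpa1 was at 239, 229 and 224 CPM in Myc_Utx 2A, 2B and 2D and 182, 249 and 166 CPM in Myc_p53 1, 2 and 3 (log2 fold change 0.21, SE 0.17, adjusted p = 0.399). For Rpa1 the highest of the 6 values was in Myc_p53 2, whereas for Rpa3 the same line was the lowest.

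Origin licensing and origin firing were the role groups with the smallest median differences, 0.13 over 9 genes and 0.11 over 8 genes, and no gene of either was called. Among licensing genes, Gmnn, which encodes the Cdt1 inhibitor geminin, was at 46.9, 44.9 and 62.4 CPM in Myc_Utx 2A, 2B and 2D and 37.8, 27.99 and 29.2 CPM in Myc_p53 1, 2 and 3. It was the one licensing gene without overlap, and its log2 fold change was 0.70, SE 0.20, adjusted p = 0.0627. Cdt1, the MCM loader that geminin holds back, was at 119.7, 121 and 155 CPM in Myc_Utx 2A, 2B and 2D and 129, 89.3 and 80.3 CPM in Myc_p53 1, 2 and 3, and Myc_p53 1 was above 2 of the 3 Myc_Utx lines (log2 fold change 0.41, SE 0.21, adjusted p = 0.223). Orc5 was at 44.1, 46.4 and 39.9 CPM in Myc_Utx 2A, 2B and 2D and 41.2, 26.5 and 32.1 CPM in Myc_p53 1, 2 and 3 (log2 fold change 0.38, SE 0.20, adjusted p = 0.214). Orc1, Orc2, Orc3, Orc4, Orc6 and Cdc6 all overlapped, with log2 fold changes from -0.08 for Orc4 to 0.48 for Orc2. Orc2 had the widest spread of the 45 genes in both groups, with a coefficient of variation of 26.1% in Myc_Utx and 31.1% in Myc_p53.

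Among firing genes, Gins1 of the GINS complex was at 27.5, 27.2 and 41.2 CPM in Myc_Utx 2A, 2B and 2D and 20.9, 22.8 and 21.5 CPM in Myc_p53 1, 2 and 3. Its groups did not overlap, with a log2 fold change of 0.56, SE 0.21, adjusted p = 0.121, and Myc_Utx 2D stood above the other lines. Gins2 was at 29.3, 26.8 and 35.9 CPM in Myc_Utx 2A, 2B and 2D and 27.5, 19.3 and 24.8 CPM in Myc_p53 1, 2 and 3 (log2 fold change 0.36, SE 0.21, adjusted p = 0.259), and Dbf4, the regulatory subunit of the Cdc7 kinase, was at 131, 122 and 139 CPM in Myc_Utx 2A, 2B and 2D and 115, 98.4 and 129.9 CPM in Myc_p53 1, 2 and 3 (log2 fold change 0.19, SE 0.13, adjusted p = 0.346). Both overlapped. Gins3 did not overlap (log2 fold change 0.27), and Gins4, Cdc45, Mcm10 and Cdc7 ran from -0.24 for Cdc7 to 0.03 for Cdc45 with overlap. Of the firing genes, 2 of 8 were higher without overlap (25.0%, near the 21.1% of all genes), beside 5 of 6 MCM genes (83.3%), and this difference between role groups was not tested.

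**Figure D3:**
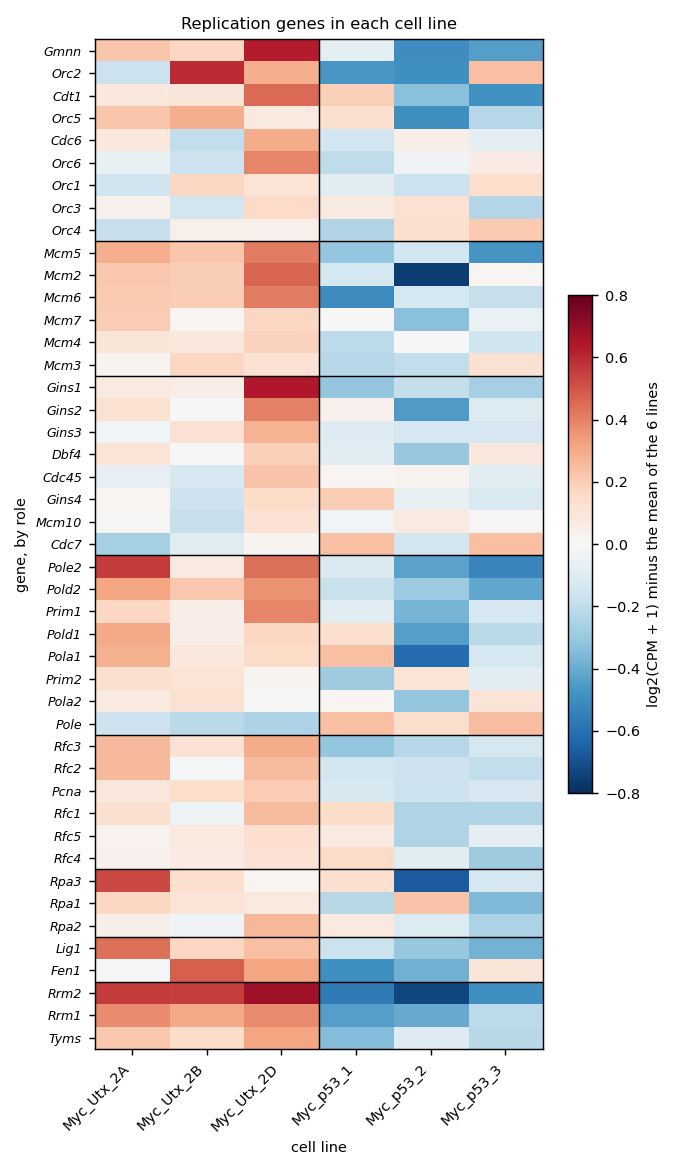
Log2(CPM + 1) of each of the 45 genes in each of the 6 lines, minus the mean of the 6 lines (red above, blue below), with horizontal lines between role groups. Rrm2, Rrm1, Tyms and most MCM genes are red in all 3 Myc_Utx lines and blue in most Myc_p53 lines, Pole is reversed, and licensing and firing genes are mixed.

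The lines within a group were not alike. Myc_Utx 2D held the highest of the 6 values for 25 of the 45 genes, Myc_Utx 2A for 8 and Myc_Utx 2B for 6, while Myc_p53 1, 2 and 3 held it for 2, 1 and 3 genes. The lowest value was in Myc_p53 2 for 17 genes and in Myc_p53 1 and 3 for 11 genes each. Summed over the 45 genes, the level was 5733, 5539 and 6107 CPM in Myc_Utx 2A, 2B and 2D and 4560, 4315 and 4549 CPM in Myc_p53 1, 2 and 3. The groups were apart, the ratio of means was 1.29, and it was 1.23 without Rrm1 and Rrm2. The median coefficient of variation of a gene was 10.1% in Myc_Utx and 12.3% in Myc_p53, and it was larger in Myc_p53 for 31 of 45 genes.

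The order of the genes by level is seen only per length. On the TPM scale, with counts per exonic base, the mean level in Myc_Utx was highest for Rrm2 (462 TPM, against 231 TPM in Myc_p53) and Pcna (375 TPM against 350.1 TPM). In Myc_p53 Pcna was highest, and Rrm2 lay below Mcm7 at 241 TPM. Mcm3 to Mcm7 followed, from 207 TPM for Mcm3 to 290.2 TPM for Mcm6 in Myc_Utx, with Pold2 among them at 263 TPM. Mcm2 was lower at 114 TPM, a level divided by 6956 exonic bases, against 3752 for Mcm3 and 3589 for Mcm4. In CPM the means in Myc_Utx were 248.9 for Mcm2, 244.3 for Mcm3 and 249.7 for Mcm4. The place of Mcm2 in this order thus depends on the length used. The origin recognition genes ranged in Myc_Utx from 19.5 TPM for Orc1 to 90.6 TPM for Orc6, below Mcm2, whereas in Myc_p53 Orc6 at 95.4 TPM lay above Mcm2 at 88.7 TPM, a gap within the spread of the lines. Fen1 was the lowest, at 15.01 TPM in Myc_Utx and 11.6 TPM in Myc_p53. Most exonic bases of Fen1 and Gins2 are shared with a gene on the other strand. Since the counting strand is not given, their levels and their place in this order are uncertain.

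**Figure D4:**
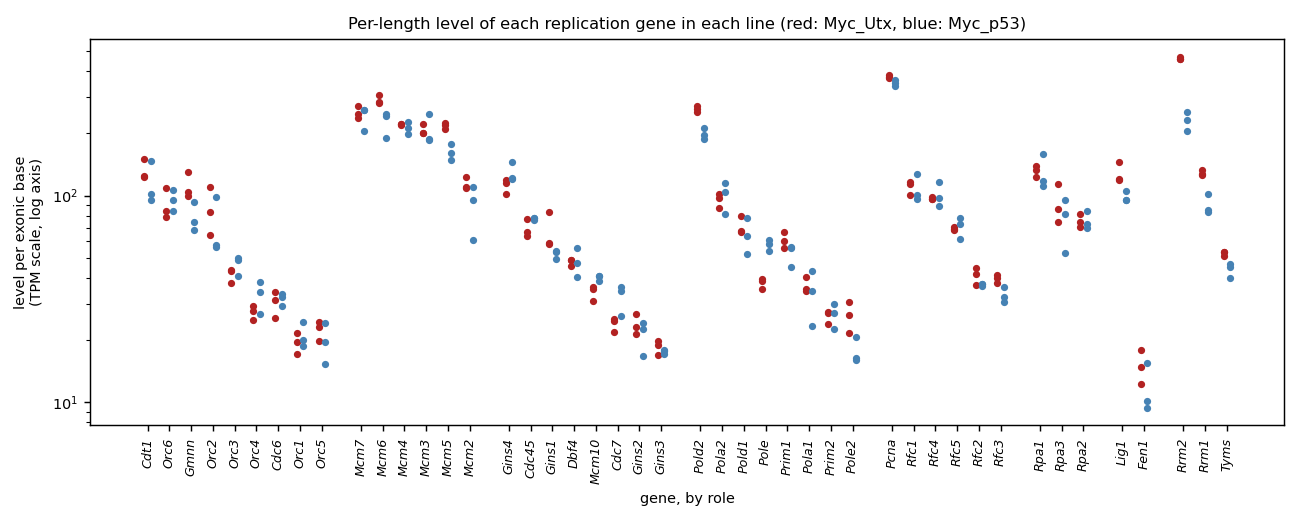
Level per exonic base of each of the 45 genes on the TPM scale (log axis), with 1 point for each Myc_Utx line (red) and each Myc_p53 line (blue), grouped by role and ordered within a role by the Myc_p53 mean. Rrm2 is at the top in Myc_Utx and Pcna in Myc_p53, Fen1 has the lowest mean in both, and since this scale lowers all Myc_Utx values relative to TMM scaling, group differences are read from the log2 fold changes instead.

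Other genes of the pathway were read from 3 further lists of 54 genes, of which 53 were tested (all but Atrip); 6 were called higher (11.3% against 6.99% of all genes) and 0 lower by edgeR, with 2 at an unadjusted p under 0.05 and a lower value. Of 15 other nucleotide supply genes, 4 were called higher (26.7%), with a median log2 fold change of 0.34 over the list. Dut, which removes dUTP, was at 455, 301 and 388 CPM in Myc_Utx 2A, 2B and 2D and 120.4, 197 and 164 CPM in Myc_p53 1, 2 and 3 (log2 fold change 1.25, SE 0.23, adjusted p = 0.0241), and Umps, of uridylate synthesis, was at 162, 167 and 184 CPM in Myc_Utx 2A, 2B and 2D and 117, 112 and 108 CPM in Myc_p53 1, 2 and 3 (log2 fold change 0.61, SE 0.10, adjusted p = 0.0202). Dtymk, thymidylate kinase, had a log2 fold change of 0.49, SE 0.11, adjusted p = 0.0364 and the folate enzyme Mthfd1 one of 0.71, SE 0.18, adjusted p = 0.0483. Each of these 4 genes lay higher in every Myc_Utx line than in any Myc_p53 line. Rrm2b, the alternative small subunit of ribonucleotide reductase, overlapped at 18.9, 19.8 and 18.3 CPM in Myc_Utx 2A, 2B and 2D and 23.2, 12.05 and 19.1 CPM in Myc_p53 1, 2 and 3 (log2 fold change 0.07, SE 0.27, adjusted p = 0.877). Samhd1, which degrades deoxyribonucleotides, was at 117, 116 and 105 CPM in Myc_Utx 2A, 2B and 2D and 123, 254 and 243 CPM in Myc_p53 1, 2 and 3 (log2 fold change -0.88, SE 0.27, adjusted p = 0.0762). All Myc_Utx lines were lower, with Myc_p53 1 only just above them, and the test was not passed.

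Of 28 tested fork genes outside the 45, 2 were called higher (7.14%, near the 6.99% of all genes) and the median log2 fold change was 0.15. Tipin, a partner of Timeless in fork protection, was at 99.1, 88.6 and 113 CPM in Myc_Utx 2A, 2B and 2D and 56.9, 59.7 and 53.6 CPM in Myc_p53 1, 2 and 3 (log2 fold change 0.82, SE 0.13, adjusted p = 0.0188). Rnaseh2c, a subunit of the ribonuclease that removes RNA from DNA, was at 48.1, 47.4 and 68.6 CPM in Myc_Utx 2A, 2B and 2D and 33.2, 27.6 and 34.2 CPM in Myc_p53 1, 2 and 3 (log2 fold change 0.79, SE 0.20, adjusted p = 0.0480). Both were higher in every Myc_Utx line. Of 10 genes of replication-coupled chromatin assembly and maintenance methylation, such as Chaf1a and Dnmt1, 0 were called by edgeR, 2 had an unadjusted p under 0.05, and the median was 0.15.

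E2F factors turn many replication genes on, and pocket proteins and the DREAM complex hold them back. Over 21 E2F, pocket protein and DREAM genes the median log2 fold change was 0.01, near that of all genes. Of these, 1 was called higher (4.76% against 6.99% of all genes) and 1 lower (4.76% against 7.69%). Without overlap, 3 were higher (14.3% against 21.1%) and 2 lower (9.52% against 20.9%). None of the 8 E2F genes was called: the log2 fold change was -0.04 for E2f1, 0.86 for E2f2 (adjusted p = 0.119, edgeR), -0.17 for E2f3, 0.01 for E2f4, -0.35 for E2f5, 0.29 for E2f6, -0.08 for E2f7 and 0.50 for E2f8. Among the E2F genes, E2f2 and E2f8 were higher without overlap and E2f5 was lower without overlap. Tfdp2, an E2F dimer partner, was called lower (log2 fold change -1.03, SE 0.26, adjusted p = 0.0488). Cdkn1a, which encodes the cyclin-dependent kinase inhibitor p21 and is a textbook target gene of p53, was at 301, 300.3 and 243 CPM in Myc_Utx 2A, 2B and 2D and 12.8, 5.38 and 26.4 CPM in Myc_p53 1, 2 and 3. It was called higher, with a log2 fold change of 4.23, SE 0.54, adjusted p = 0.0156, and all Myc_Utx lines lay far above all Myc_p53 lines. Of 10 proliferation markers, 2 were called higher (20.0% against 6.99% of all genes), and the median was 0.24. They were the mitotic kinase gene Plk1 (log2 fold change 0.78, SE 0.12, adjusted p = 0.0171) and Birc5 (log2 fold change 0.40, SE 0.10, adjusted p = 0.0463). In this list 7 markers lay above 0, 5 of them without overlap, and 3 lay below 0 with overlap. Those 3 were Top2a (log2 fold change -0.20), Bub1 (-0.15) and Tpx2 (-0.07). Mki67 was at 872, 732 and 814 CPM in Myc_Utx 2A, 2B and 2D and 649, 445 and 561 CPM in Myc_p53 1, 2 and 3, without overlap, and did not pass the test (log2 fold change 0.55, SE 0.16, adjusted p = 0.0662).

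**Figure D5:**
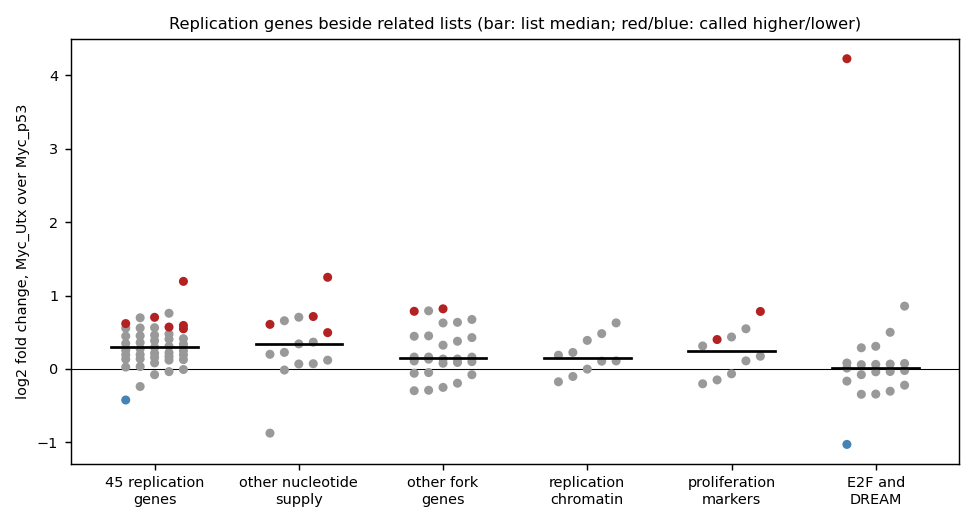
Log2 fold change of Myc_Utx over Myc_p53 for each tested gene of the 45 replication genes and of 5 related lists, with a bar at each list's median; red points were called higher and blue points lower. The medians run from 0.01 for E2F and DREAM genes to 0.34 for other nucleotide supply genes, and the point at 4.23 is Cdkn1a.

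Markers of hepatocytes and of other cell types also moved between the lines. Of 14 hepatocyte markers, which summed to 31.3 to 97.2 CPM in Myc_Utx and 79.1 to 1250 CPM in Myc_p53, 9 were too low to be tested, and Alb was at 4.87 CPM or less in every line. Krt8 and Krt18, which biliary cells also express, made up most of the sum in 4 of the 6 lines, but not in Myc_Utx 2D, where both were at 0 and Fgb was at 44.3 CPM, nor in Myc_p53 2. Apob was at 0, 1.12 and 0.223 CPM in Myc_Utx 2A, 2B and 2D and 13.9, 13.2 and 53.9 CPM in Myc_p53 1, 2 and 3, and was called lower in Myc_Utx (adjusted p = 0.0241, edgeR). With 0, 6 and 1 counts in Myc_Utx, Apob passed the filter only through Myc_p53. A call of this gene could therefore only be lower. Fgb was at 1.12 to 44.3 CPM in Myc_Utx and 14.8 to 25.3 CPM in Myc_p53. The 11 macrophage markers summed to 2.79 to 6.18 CPM in Myc_Utx and 41.0 to 111 CPM in Myc_p53, with 9 lower in Myc_Utx without overlap and 5 at 0 in all Myc_Utx lines. Of all genes tested, 20.9% were lower without overlap. The 8 fibroblast markers summed to 1953 to 2693 CPM in Myc_Utx and to 41.4 to 3170 CPM in Myc_p53, and 6 biliary markers to 554 to 1463 CPM and 168 to 1547 CPM. Col3a1 made up most of the fibroblast sum in Myc_Utx, at 1730.5 to 2558 CPM, and in Myc_p53 2, at 2721 CPM. Of 6 tested fibroblast markers, 2 had a log2 fold change above 0 and 4 below, and none was called. Spp1 made up most of the biliary sum in Myc_Utx, at 449 to 1362 CPM. Of 4 tested biliary markers, 2 lay above 0 and 2 below, and none was called. The 6 endothelial markers reached at most 1.42 CPM. The part of these differences in the replication gene values was not tested.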

How the data were processed

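RNA of 6 mouse liver tumour cell lines, 3 of Myc_Utx and 3 of Myc_p53, was sequenced, and the authors deposited 1 table of raw counts per gene with gene coordinates and exonic lengths. The submitters' processing notes name Trimmomatic 0.36, STAR 2.5.3a, featureCounts 1.6.3 and DESeq2 1.20.0 on GRCm38, whereas the study's methods name another counter and build. The table's coordinates equal those of the mouse GENCODE M21 annotation for 96.0% of genes. Totals of 4656103 to 6937497 counts per line limit precision most for genes with few counts, such as Fen1.

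Counts were filtered with filterByExpr (minimum count 10), scaled by TMM and tested with edgeR 4.0.16 (R 4.3.3) by the quasi-likelihood test over the 6 lines with no covariate, and p-values were adjusted by Benjamini-Hochberg over all 11510 genes tested. Fold changes are Myc_Utx over Myc_p53. The common dispersion was 0.112, a biological coefficient of variation of 33.4%. For 1 gene alone, 3 lines against 3 allow no exact two-sided permutation p below 0.1. The code was tested on simulated data.

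The 45 genes and the further lists were chosen with earlier results of these data known, so no test over a list was made. Named with full values were the called genes and the 3 genes of smallest p in each role group. Of the further lists, up to 5 called genes were named, with the E2F genes and Cdkn1a; Rrm2b, Samhd1 and Mki67 were added after their values were seen. The alternatives were DESeq2 (version 1.42.0), its size factors in edgeR, total counts, other filters, length offsets from a spline of log ratio on length (5 degrees of freedom) and leaving out each line. Scaling by counts per exonic base was added after the data were seen.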

Additional observations from a re-analysis of the deposited data

How the results depend on the processing

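All 7 called genes kept their direction under every alternative run. Leaving out 1 line at a time changed the calls most: replication genes called higher ranged from 0 to 6 (6 with all lines), those called lower from 0 to 1, those without overlap in either direction from 22 to 30 (19 with all lines, fewer lines making overlap rarer), and calls in the further pathway, E2F and DREAM lists from 0 to 7 (8 with all lines). The share of all genes without overlap is not given for these settings, so the range from 22 to 30 is no result about the replication genes. Of the whole table, 805 genes were called higher and 885 lower with all lines, 3 and 1 when Myc_Utx 2A was left out, 43 and 38 for 2B, 43 and 28 for 2D, 481 and 627 for Myc_p53 1, 836 and 1118 for Myc_p53 2 and 63 and 57 for Myc_p53 3. DESeq2 called 1277 and 1572 genes. Pole was not called with no filter on low counts or with length offsets (0 replication genes called lower in each), and Mcm6 was not called with total counts only (adjusted p = 0.0514, edgeR), where the further lists held 5 calls, or with at least 10 counts in every line (adjusted p = 0.05001, edgeR). The cause was not tested. The median of all genes moved to -0.23 with no filter, -0.26 with DESeq2, both with many low genes added, and -0.08 with total counts, while the median of the 45 genes moved to 0.0997 with per-length totals, which shift every gene. Signs changed for genes that were not called: Orc3 was -0.0410 with total counts, -0.0182 with at least 10 counts in every line, -0.167 with per-length totals and -0.0841 to 0.119 with a line left out. Cdc45 was -0.0339, -0.0116 and -0.163 under the same settings, -0.115 with length offsets and -0.0669 to 0.119 with a line left out. Gins4 was 0.0204 with no filter and -0.0776 to 0.0893 with a line left out. With length offsets Mcm10 was 0.144, Orc4 0.0949 and Rfc4 -0.0871, and with a line left out Mcm10 ran from -0.0905 to 0.0596, Orc4 from -0.212 to 0.0119 and Orc6 from -0.0431 to 0.251. With per-length totals Mcm3 was -0.00114, Cdc6 -0.0636, Orc1 -0.114, Orc6 -0.0740, Dbf4 -0.00367, Pola2 -0.0736, Rfc4 -0.0538, Rfc5 -0.0381, Rpa2 -0.00249 and Prim2 -0.0206. No paired analysis was possible because no replicate number occurs in both groups.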
